A study of Mus musculus with 4 samples.

Results

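The comparison set RAW 264.7 cells after 1 h with Lactobacillus bulgaricus against untreated RAW 264.7 cells, which is 2 of the 4 arrays of the series. RAW 264.7 is a mouse macrophage-like line of BALB/c origin that carries a transforming murine leukaemia virus, and L. bulgaricus is a lactic acid bacterium used to make yoghurt. Both groups grew in the same medium without antibiotic. The treated cells received the bacteria at a multiplicity of infection (MOI) of 10, and the remaining 2 arrays held cells after 4 and 6 h at the same MOI. Each array carried total RNA combined in equal amounts from 3 cultures and labelled with Cy5, beside a common reference labelled with Cy3 that the labels describe as a pool of every test group and the untreated group. No dye swap was made. The design asked how expression in these cells moves over time with the bacteria, and the 1 h array is its earliest time. Of 38864 probes left after outlier spots were removed, 15612 were well above local background in both channels on both arrays; 2539 of these had no gene name, and the rest stood for 10370 genes. With 1 array a side there was no replicate array, so nothing could be tested and no p-values are given.

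All values below are log2 ratios of Cy5 over Cy3, normalized within each array, and "difference" means the log2 ratio at 1 h minus that of untreated cells. A reference channel that reads the same on both arrays cancels in it; Cy3 itself moved by at least 1.5-fold in 4.9% of genes. A gene counted as higher or lower past a difference of 1 in size (2-fold), and a looser rule of 1.5-fold (log2 0.58) is counted beside it. Replicate spots of 210 probes gave a difference an SD of 0.134, which covers spot error alone and not the spread between cultures. Processed signals are the scanner software's own background-subtracted, dye-normalized brightness, with no scaling between arrays, and they are given per array to show the data behind a ratio. The 4 arrays lay on 1 slide in the order of the times, and slide position and time cannot be told apart.

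The label of a macrophage line was checked first. Of 10 macrophage markers with a probe, 8 were well above background in Cy5 on both arrays. Their summed processed Cy5 signal was 50964 untreated and 60102 at 1 h, and the sum in the reference was 40077 and 45628. Csf1r, the receptor for macrophage colony-stimulating factor, stood at log2 ratios of 0.43 and 0.47, and its difference was 0.03. Markers of other tissues were present as well, on both arrays and in the reference. All 10 enterocyte, all 7 goblet cell, all 7 smooth muscle and all 6 Paneth cell markers with a probe were well above background in Cy5 on both arrays, against 4 of 10 pancreas and salivary gland, 4 of 7 stroma, 2 of 5 B cell and 1 of 4 erythroid markers. Of 6 T and NK cell markers 5 were so untreated and 4 at 1 h, and of 6 neutrophil markers 3 and 4. Among the gland markers Prss1, Cpa1, Pnlip and Amy2a5, genes of the acinar cells of the pancreas, were not, nor was the B cell gene Ms4a1. The 4 gland markers that were well above background were Sycn, which codes for a zymogen granule protein, Cela1, Klk1 and Klk1b5. The summed Cy5 signal from untreated to 1 h went from 1579 to 5678 for Paneth cell, 5905 to 11394 for goblet cell, 2006 to 3384 for smooth muscle and 8447 to 7764 for the 10 enterocyte markers. Anpep alone gave 3789 and 3273 of the enterocyte sums, at log2 ratios of 0.003 and 0.02. Over the longer enterocyte list of 36 measured genes the sum went from 22541 to 29360. In the reference the sums over the 4 marker sets were 10743 and 6608, 23550 and 21300, 4772 and 5617, and 13969 and 13884. On the normalized scale 53 genes (0.511% of those measured) lay below a log2 ratio of -0.5 on all 4 arrays, 10 of them on the enterocyte list and 5 on the goblet cell list, so for these genes the labelled pool was brighter than each sample it is said to hold. The source of these transcripts was not tested.

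Immediate early genes are switched on within minutes of a stimulus, because the factors that read their promoters are already in the cell and wait only for a phosphate. Most code for transcription factors (the NR4A receptors, the FOS and JUN partners of AP-1, the EGR and KLF zinc fingers) or for brakes on the same signal, such as the dual-specificity phosphatases that switch MAP kinases off. Macrophages that meet bacteria run such a wave ahead of cytokine and chemokine genes, most of which need NF-kB.

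The promoters of 4 early genes that stood high at 1 h are shown because they carry the short sites that early factors read. Each is the 250 bases before a transcription start on the gene's own strand, 5′ to 3′, from RefSeq on GRCm38.p6. Capitals mark the short form of the cyclic AMP response element, here the short CRE site (TGACG, or CGTCA when it lies on the other strand), the CArG box of serum response factor (CC, a run of 6 A or T, then GG) and the kB site. The windows are chr15:101266596-101266845 on the plus strand for Nr4a1, chr2:57124004-57124253 on the minus strand for Nr4a2, chr7:19310046-19310295 on the minus strand for Fosb and chr10:67537619-67537868 on the plus strand for Egr2.
Nr4a1: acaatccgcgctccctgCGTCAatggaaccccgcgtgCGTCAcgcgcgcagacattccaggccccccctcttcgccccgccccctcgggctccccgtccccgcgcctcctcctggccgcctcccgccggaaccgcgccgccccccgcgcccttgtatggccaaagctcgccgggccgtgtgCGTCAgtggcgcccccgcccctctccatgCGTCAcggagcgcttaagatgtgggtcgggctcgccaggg
Nr4a2: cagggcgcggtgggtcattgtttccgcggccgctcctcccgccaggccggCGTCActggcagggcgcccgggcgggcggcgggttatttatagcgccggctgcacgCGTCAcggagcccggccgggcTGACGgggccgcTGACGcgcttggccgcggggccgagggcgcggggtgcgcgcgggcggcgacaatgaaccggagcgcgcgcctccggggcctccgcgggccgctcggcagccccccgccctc
Fosb: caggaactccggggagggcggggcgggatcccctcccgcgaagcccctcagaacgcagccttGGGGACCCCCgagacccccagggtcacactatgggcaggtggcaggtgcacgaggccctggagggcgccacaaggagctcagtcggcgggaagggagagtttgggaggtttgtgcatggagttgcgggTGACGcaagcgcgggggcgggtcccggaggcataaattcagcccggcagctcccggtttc
Egr2: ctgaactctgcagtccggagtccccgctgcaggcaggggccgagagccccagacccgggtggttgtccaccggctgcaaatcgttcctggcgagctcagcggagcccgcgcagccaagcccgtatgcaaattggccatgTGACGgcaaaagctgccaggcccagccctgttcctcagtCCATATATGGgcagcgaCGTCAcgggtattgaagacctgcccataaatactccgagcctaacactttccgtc

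Nr4a1 holds short CRE sites that begin 233, 213, 69 and 40 bases before the start, and Nr4a2 holds them at 200, 144, 123 and 111. Fosb has 1 short CRE site at 60 and a kB site at 188, and the Egr2 window shown has such sites at 111 and 55 and a CArG box at 72. Egr2 has further starts: the window from 67535249 holds none of the marked sites, and that from 67537316 a CArG box alone. In the counts below, a gene holds a site if any of its windows does. A promoter was found for 8 of the 11 early genes that were at least 1.5-fold higher at 1 h; Ier2, Klf5 and Fosl1 had no entry. A short CRE site on either strand lay in 6 of these 8 (75.0%), in 22 of 40 other measured early genes (55.0%), in 31.3% of 8370 measured genes and in 19.8% of 27025 RefSeq genes. The full element TGACGTCA, which contains the short one, was in 0 of the 8, in 12.5% of the other early genes and in 3.17% of measured genes. A CArG box lay in 1 of the 8 (Egr2), against 1.39% of measured genes, and a kB site in 2 (Fosb and Ier3), against 5.4%. The AP-1 site TGANTCA was in 0 of 8, against 5.7%. A match describes the letters of the window and not a bound factor.

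After 1 h, 34 of the 10370 genes were higher than in untreated cells by the 2-fold rule (0.328%) and 5 were lower (0.0482%), or 0.376% in either direction. At 1.5-fold the counts were 135 (1.3%) and 48 (0.463%), or 1.76% in either direction. Of the 34, 18 were on lists of gut, muscle, stroma or gland transcripts, 5 were early response genes and 11 were on neither. Of the 18, 9 were alpha-defensin genes, near-identical copies whose signals need not be independent. Without the tissue lists the counts were 16 higher and 5 lower. The median difference over all genes was 0.06 with an SD of 0.19, and 70.6% of genes lay above 0. In Cy5 alone, before division by the reference, 39 genes were higher (0.376%) and 70 lower (0.675%) by 2-fold, and 20 of the 34 higher genes but 0 of the 5 lower ones were among them. The higher share of all calls was thus 87.2% in the ratio and 35.8% in Cy5 alone; from the processed signals it was 73.6%, with 117 higher and 42 lower. Median centring without loess moved the median of all genes to 0.86, and relative to that median 33 genes were higher and 19 lower. In bulk RNA such as this, fewer cells of a type and less RNA per cell cannot be told apart.

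**Figure D1:**
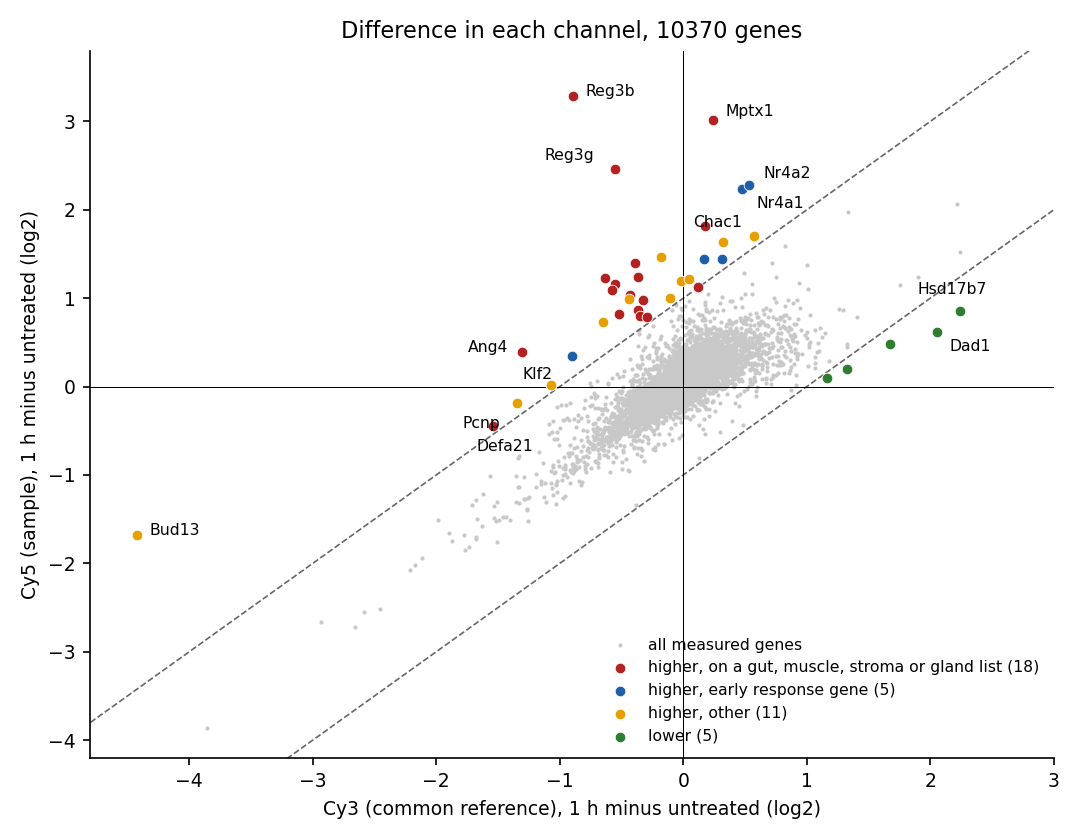
Each point is 1 of 10370 measured genes, with the difference of the normalized reference channel (Cy3, log2, 1 h minus untreated) across and that of the sample channel (Cy5) up; dashed lines mark a 2-fold difference of the ratio. Reg3b, Mptx1, Nr4a1 and Nr4a2 stand above the upper line through Cy5, Bud13, Pcnp and Defa21 through a lower Cy3, and the 5 lower genes lie to the right through a higher Cy3.

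Early response genes as a group stood above untreated cells. On 5 lists of such genes 55 of 71 members were measured: 5 were higher by the 2-fold rule, against 0.328% of all genes, 11 by the 1.5-fold rule, against 1.3%, and 0 lower by either. Of the 55, 48 lay above 0, as did 70.6% of all genes. Their median difference was 0.25, against 0.06 over all genes, and 0.21 in Cy5 alone. Their median log2 ratio was -0.06 untreated, 0.23 at 1 h, -0.07 at 4 h and 0.00 at 6 h. The 1 h array was the highest of the 4 for 31 of the 55, against 36.3% of all genes.

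The NR4A nuclear receptors had the largest differences of any early response list. These are orphan receptors whose activity follows their amount. Nr4a1 had processed Cy5 signals of 743 untreated, 3885 at 1 h, 939 at 4 h and 1137 at 6 h, with reference signals of 1414, 2016, 1871 and 1810. Its log2 ratios were -0.77, 1.00, -0.84 and -0.62, so the 1 h array stood alone, and the difference was 1.76 (2.24 in Cy5). Nr4a2 was nearly the same in size. Its Cy5 signals were 144, 1589, 103 and 113, its log2 ratios -0.68, 1.07, -1.31 and -1.23, and its difference 1.76 as the mean of probes at 1.13 and 2.38. Both members measured were higher; Nr4a3 was at background throughout.

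Of 13 AP-1 genes measured 3 were at least 1.5-fold higher, 1 of them past 2-fold, and 11 lay above 0. Fosb, a FOS family partner of JUN, had Cy5 signals of 87.1, 430, 39.4 and 46.6 against a reference of 83.7, 89.9, 76.4 and 87.0, and its difference was 1.13. It was again the 1 h array alone that stood high, although the local background of the untreated spot was marked as an outlier. Fosl1, which codes for FRA-1, had log2 ratios of 0.29, 0.98, -0.00 and -0.54 and a difference of 0.69, of which 0.35 was in Cy5. Atf3, a stress-induced repressor, had a difference of 0.59 and was highest at 6 h, at 0.61 against 0.25 at 1 h. Jun had a difference of 0.50 and Fos, the founding member, one of -0.01 with an SD of 0.11 over 8 spots. The family was thus split between Fosb and Fos, with Cy5 signals for Fos of 684 and 615.

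The zinc finger factors were led by Klf2 and Egr2. Egr2 had Cy5 signals of 328, 818, 133 and 63.0 and log2 ratios of -0.13, 0.81, -0.84 and -1.10, so it was high at 1 h and below the untreated level later, and its difference was 0.94. Klf2, a factor known to restrain inflammatory genes in macrophages, had log2 ratios of -0.23, 1.02, -1.44 and -1.18. Its difference of 1.24 was 0.35 in Cy5 and -0.90 in the reference: its Cy5 signals were 1191, 1657, 194 and 107 and its reference signals 1436, 699, 802 and 367. The part of the reference in this value was not tested. Klf5, a factor also known from gut crypts, had a difference of 0.76, all of it in Cy5, and stayed at 0.87 and 0.66 at 4 and 6 h. Of 13 measured genes on this list 3 passed the 1.5-fold rule and 12 lay above 0. Egr1 was well above background only in Cy5 at 1 h and never in the reference, and Egr3 and Egr4 were so on no array, so none of the 3 has a ratio.

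Ier2, a small nuclear protein of the early wave, had Cy5 signals of 245, 932, 280 and 235 over a reference of 286 to 339. Its log2 ratios of -0.15, 1.12, -0.07 and -0.26 show a single high array, and its difference was 1.27. Ier3, a survival factor of stressed cells, behaved otherwise: it was 0.73 above untreated cells at 1 h and 2.12 and 1.65 above at 4 and 6 h. Phlda1 (0.55), Errfi1 (0.53) and Btg2 (0.50), an antiproliferative gene, lay just under the 1.5-fold rule. Of 16 such genes measured 2 passed it and 15 lay above 0.

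Among 11 MAP kinase phosphatases and Spry or Spred genes 1 passed the 1.5-fold rule. Dusp2, a nuclear phosphatase of immune cells, had Cy5 signals of 4980, 9364, 4733 and 4150 over a reference of 4832 to 5894. Its log2 ratios were 0.05, 0.88, -0.07 and -0.48, so it was raised at 1 h alone, by 0.83. Dusp5 (0.51) and Dusp1 (0.49) stood higher by less than the rule, and Dusp6, the phosphatase of cytoplasmic ERK, was at -0.25.

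**Figure D2:**
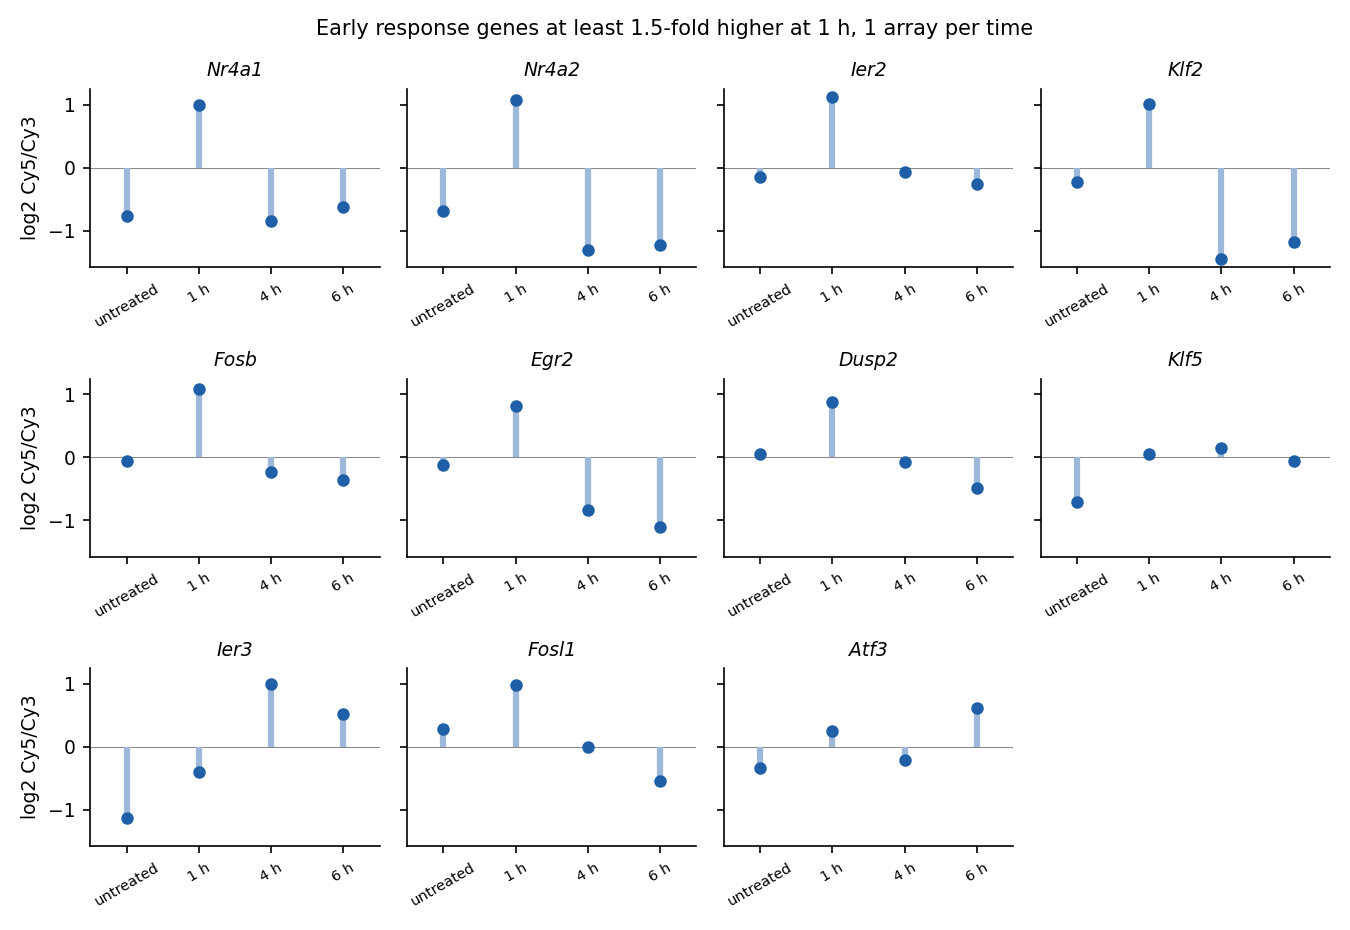
The log2 ratio of Cy5 over Cy3 is plotted for the 11 early response genes at least 1.5-fold higher at 1 h, for untreated cells and for 1, 4 and 6 h (1 point per array). In 8 of the 11, from Nr4a1 to Fosl1, the 1 h array is the highest; Klf5, Ier3 and Atf3 are higher at 4 or 6 h.

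Of these 11 genes 8 were also past the 1.5-fold rule in Cy5 alone, and 8 had the 1 h array as the highest of the 4 in the ratio and in Cy5. By 4 h, 9 of the 11 were within 0.3 of the untreated array or below it. The 11 were picked for a high value on the 1 h array, which by itself favours both the highest rank and the later fall. The 1 h, 4 h and 6 h differences share the untreated array, so they are given side by side and not set against each other.

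Some genes outside these lists had the same form. Chac1, an enzyme that breaks down glutathione and a target of the stress factor ATF4, had Cy5 signals of 1550, 7039, 1373 and 937 and log2 ratios of -0.16, 1.16, -1.04 and -1.89. It was high at 1 h alone, with a difference of 1.32 (1.64 in Cy5). Sesn2, a stress sensor upstream of mTORC1, had a difference of 0.74 and log2 ratios of 0.29, 1.03, 0.07 and -0.49. Of 23 members of the ATF4 list measured, 2 passed the 1.5-fold rule upward and 1 downward, and the median was 0.10. Ddit4 was at 0.48, Trib3 at 0.40 and Atf4 itself at 0.10, while Stc2 was at -0.91 with Cy5 at -0.04. On the unfolded protein response list 0 of 22 genes passed either rule.

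Arc, an early gene best known from active neurons, had a difference of 1.22 (1.20 in Cy5), with Cy5 signals of 203, 701, 246 and 422. Cd83, a surface protein of activated antigen-presenting cells, had Cy5 signals of 436, 977, 603 and 590 and a difference of 0.92. Zyx, which codes for the focal adhesion protein zyxin, was at 0.99, Itprip at 0.90 and the clock repressor gene Per1 at 0.63. In each of these 5 genes the Cy5 channel alone carried the difference, with a reference that moved by 0.24 or less.

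Lists of inflammation genes had few measured members past the 1.5-fold rule and 0 past 2-fold. Of 22 chemokine genes listed 11 were not measured, and of 30 cytokine genes 19, so these have no ratio. A gene well above background in Cy5 but not in the reference also counts as not measured. NF-kB and its feedback genes had a median of 0.07 over 25 measured genes, with 0 past either rule. Nfkbia, the inhibitor that NF-kB induces first, was at -0.14, with Cy5 signals of 31028 and 30312. Tnfaip3 was at 0.39 in the ratio, but both channels of its probe were dimmer at 1 h, at -1.29 in Cy5 and -1.68 in the reference. Of 11 measured chemokine genes 2 passed the 1.5-fold rule, Cxcl2 (0.63) and Ccl6 (0.60), with a median of 0.19, against 1.3% and 0.06 over all genes. Ccl6 is also on the goblet cell list and counts there too. Cxcl2, a neutrophil attractant, had Cy5 signals of 324, 516, 764 and 1198, so the 1 h array was the first step of a series that was higher on each later array. Ccl3 (-0.05) and Ccl4 (0.06) were near 0.

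Of 11 measured cytokine genes Osm, an IL-6 family cytokine, was the 1 member past the 1.5-fold rule, at 0.71. Its Cy5 signals were 164, 491, 122 and 107, so the 1 h array stood alone. Tnf was at 0.03 with an SD of 0.16 over 10 spots. Its Cy5 signals were 16284, 22558, 36740 and 20232, but the reference on the first 2 arrays was 17513 and 22725. Ptgs2, the inducible cyclooxygenase, was at 0.66 with an SD of 0.05 over 9 spots. Among 32 pattern recognition genes Nod2, the sensor of bacterial muramyl dipeptide, was the 1 past the rule (0.64), with Ticam1 at 0.55 and a list median of 0.08. Il1b and Il6 did not reach a level well above background on any of the 4 arrays.

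Other lists of cell function lay near the median of all genes. Interferon-stimulated genes (35 measured, median 0.07), NRF2 targets (19, 0.07) and the unfolded protein response (22, 0.03) had 0 members past either rule. Cytosolic ribosomal proteins (51 genes) and the respiratory chain (67 genes) had medians of -0.03 and -0.02 with 0 members past 2-fold. Macrophage identity genes (15 measured) had a median of 0.01 and ran from -0.22 to 0.25.

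**Figure D3:**
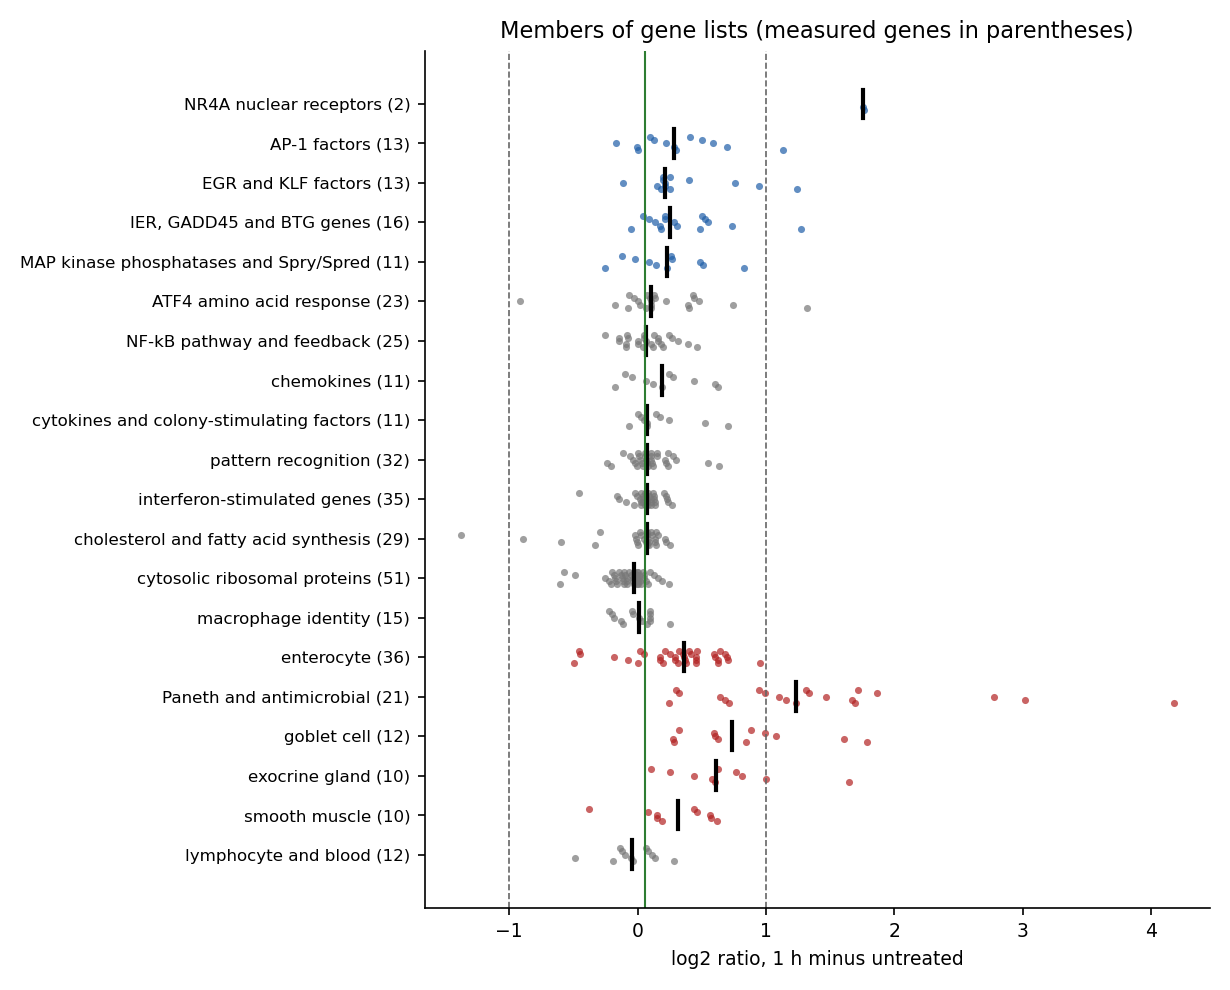
Each point is a measured gene and its difference (log2 ratio, 1 h minus untreated) on 20 gene lists; black bars are list medians, the green line is the median of all genes (0.06) and dashed lines mark 2-fold. Early response lists (blue) and gut, gland and muscle lists (red) reach the right side, while the NF-kB, interferon and ribosomal protein lists stay around the green line.

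Transcripts of the gut lining had the largest differences. The Paneth cell and antimicrobial list had 21 measured genes, of which 13 were higher by the 2-fold rule, 18 by the 1.5-fold rule and 15 by 1.5-fold in Cy5 alone (2.39% of all genes), with a median of 1.23. Of the 13, 9 were alpha-defensin genes, which are near-identical copies, so these counts need not be of independent signals. Goblet cell genes followed with 3 and 9 of 12 (median 0.74), gland genes with 2 and 6 of 10 (0.61), and enterocyte genes with 0 and 9 of 36 (0.36); a gene on both of 2 lists counts under each. Smooth muscle had 1 of 10 past 1.5-fold (median 0.32) and stroma 0 of 7 (0.17), and lymphocyte and blood genes had 0 of 12 and a median of -0.04. The lists were chosen with these values known and are not independent evidence of their direction.

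Over the 6 tissue lists 87 of 94 genes lay above 0, and the median difference of 0.46 was 0.35 in Cy5 and -0.15 in the reference. The untreated array was the low one: the median log2 ratio was -0.93 there, against -0.30 at 1 h, -0.42 at 4 h and -0.44 at 6 h. On the untreated array 84 of the 94 had a ratio below 0, and 67 still had one at 1 h. The 2-fold rule by itself favours genes with a low untreated ratio, because that ratio is subtracted. Of the 34 genes higher at 1 h, 25 had an untreated ratio below -1, where 0.868% of all genes lay. The 18 on these lists make up most of them; the other 7 were Gpx2, the glutathione peroxidase of gut epithelium, Tspan1, Gsdmc4, the water channel Aqp8, the acute phase gene Saa1, Ly6a and Fam160a1.

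Reg3b and Reg3g code for secreted antibacterial lectins of the gut wall. Reg3b had Cy5 signals of 76.3 untreated, 1908 at 1 h, 840 at 4 h and 554 at 6 h, and reference signals of 3361, 1631, 1788 and 1675. Its difference of 4.18 was 3.29 in Cy5 and -0.89 in the reference, and the untreated array alone was low in Cy5 and high in Cy3. Reg3g had Cy5 signals of 249, 2033, 1106 and 564 and a difference of 3.02. Mptx1, a pentraxin of Paneth cells, was low both untreated and at 4 h, with Cy5 signals of 139, 2042, 131 and 728. Its difference was 2.78, and the local background of its untreated spot was marked as an outlier.

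Alpha-defensins, the antimicrobial peptides of Paneth cell granules, are near-identical copies, so the signal of a single member is uncertain. Of 13 measured 9 were higher by the 2-fold rule, 12 by the 1.5-fold rule and 10 by 1.5-fold in Cy5, with a median of 1.23. Defa38 was the highest, at 1.87, with Cy5 signals of 1596, 3950, 3389 and 1355. The 1 h array was the highest of the 4 for 6 of the 13. Defa21 passed the rule through its reference, which was 2403 untreated and 1077 at 1 h, while its Cy5 difference was -0.44.

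Among goblet cell genes Fcgbp, a mucus protein, had Cy5 signals of 964, 2869, 1997 and 2495 and a difference of 1.79. Clca1, which trims the mucus, had 654, 1730, 719 and 946 and a difference of 1.61. Muc2, the gel-forming mucin itself, had 465, 684, 573 and 470 and a difference of 0.60, just past the 1.5-fold rule. Of the gland genes Sycn, a zymogen granule protein, had 53.8, 510, 25.7 and 967 and a difference of 1.64, high at 1 and 6 h and low untreated and at 4 h. Klk1, a tissue kallikrein, was the gene nearest the rule from inside (1.00), with Spink4 at 1.08, and Retnlb and Zyx, both at 0.99, were nearest from outside.

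Of 36 measured enterocyte genes 31 lay above 0, 9 were at least 1.5-fold higher and 0 lower. In Cy5 alone 3 were higher and 3 lower by 1.5-fold, against 2.39% and 2.2% of all genes. The list median was 0.36 in the ratio, 0.19 in Cy5 and -0.16 in the reference. Krt19, an epithelial keratin, was at 0.95 with Cy5 signals of 1299, 2880, 2462 and 2718. Fabp2, the intestinal fatty acid carrier, was at 0.46 with Cy5 signals of 921 and 1153 under a reference of 4637 and 4549. Among the 5 below 0 were Fabp1 (-0.50), Lct, which codes for lactase (-0.45), and Sis, which codes for sucrase-isomaltase (-0.45), and their Cy5 differences were -0.65, -0.78 and -0.69. Lct had Cy5 signals of 387, 191, 47.8 and 142, the highest on the untreated array.

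**Figure D4:**
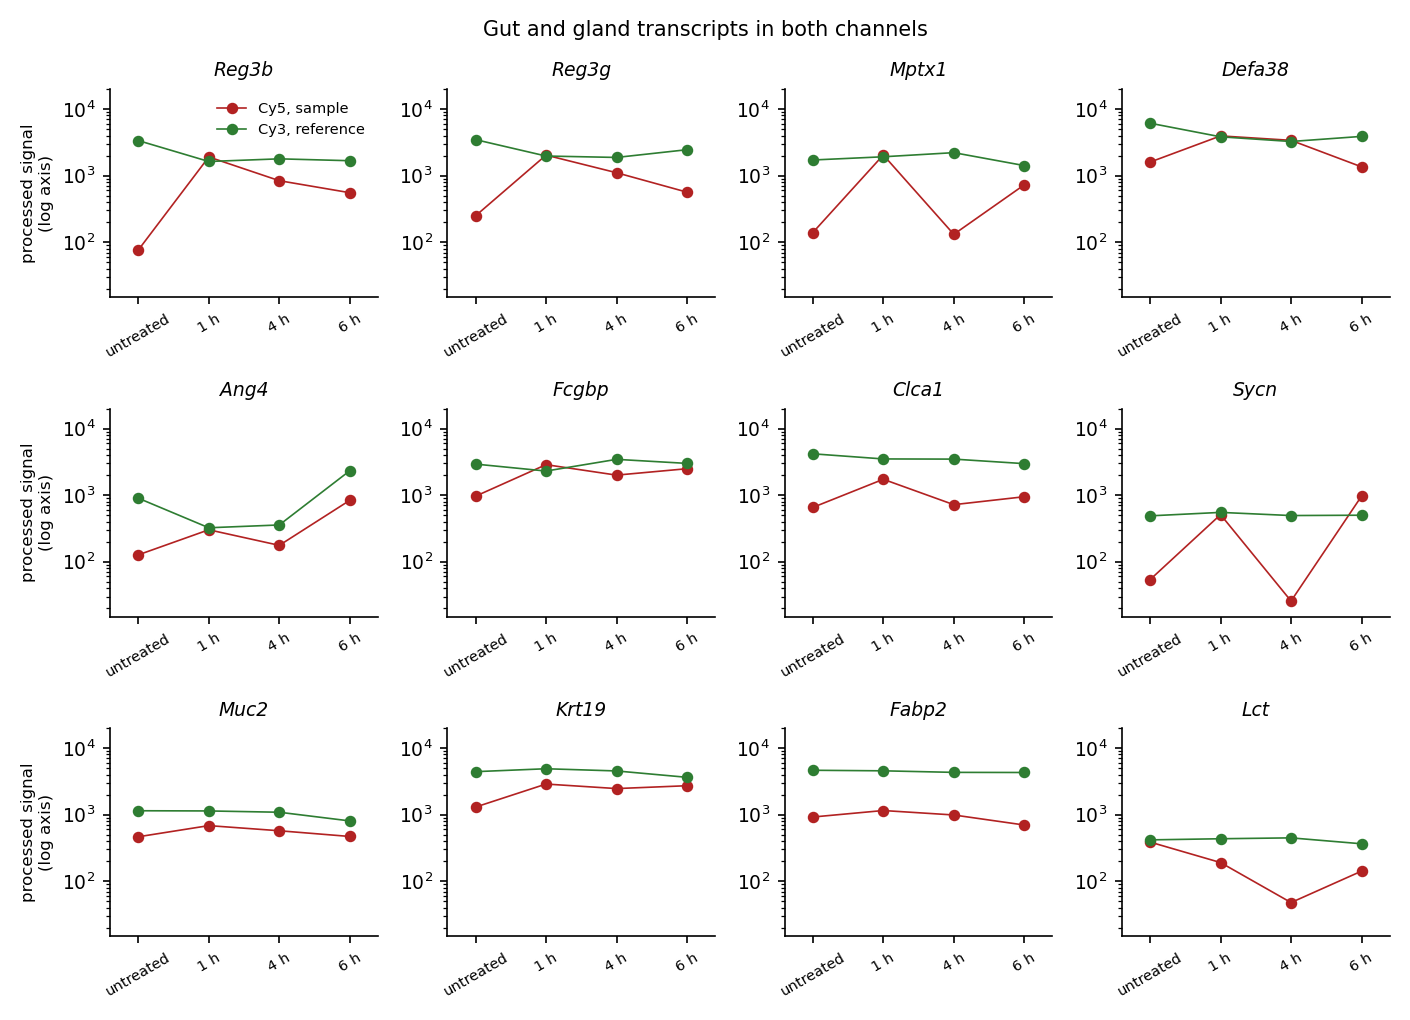
Processed signals (log axis) of 12 gut and gland genes on the 4 arrays, with the sample in red (Cy5) and the common reference in green (Cy3), 1 point per array. Reg3b and Reg3g are low in Cy5 on the untreated array alone, Mptx1 and Sycn on the untreated and 4 h arrays, and Lct is highest untreated.

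Of the 41 tissue-list genes past the 1.5-fold rule 31 had a promoter entry, and the short CRE site lay in 2 of the 31 (6.45%), while a TATA box (TATAAA) lay in 12 (38.7%), against 7.87% of measured genes. It lay in 14.3% of RefSeq genes and in 17.5% of the other measured early genes. Of the 8 early genes 1 held a TATA box. The 41 include alpha-defensins, which are near-identical copies, so their windows need not be independent.

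The lower genes were few, and in each the normalized reference channel moved. Dad1, a subunit of the oligosaccharyltransferase that glycosylates proteins, had Cy5 signals of 14468, 24513, 25090 and 25275 and reference signals of 4964, 22485, 24563 and 28156. Both channels were dimmer on the untreated array, the reference more so, which gave a difference of -1.43 with Cy5 at 0.62. Anapc7 (-1.20), a subunit of the anaphase-promoting complex, Lsm7 (-1.12), of the ring on U6 snRNA, and Tnni2 (-1.07), a fast-muscle troponin, had the same form. Hsd17b7, an enzyme of cholesterol synthesis, was at -1.38 as the mean of probes at -2.90 and 0.14, and at 0.14 from processed signals. Its probe at -2.90 had an outlying local background on the untreated array and a normalized reference difference of 4.34. In these 5 genes the Cy5 differences ran from 0.09 to 0.86 and the reference differences from 1.16 to 2.24, where 1.16% of all genes had a reference that moved by 2-fold. Without genes whose reference moved by 2-fold, 29 genes were higher and 0 lower.

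The reference moved by at least 1.5-fold in 39 of the 48 genes lower by that rule, against 4.9% of all genes. An outlying local background on either array touched 20 of the 48, and 3 of the 5 past 2-fold, against 12.1% of all genes. Of the 48, 35 had their lowest reference signal of the 4 arrays on the untreated array, by at least 1.5-fold, against 1.77% of all genes. Gapdh, the glycolytic enzyme often taken as a control, was among the 48 at -0.90: its probes gave -1.58 and -0.22, and it was at 0.02 in Cy5. The Gapdh probe at -1.58 had an outlying local background on the untreated array. Nos2, the inducible nitric oxide synthase, was at -0.67 with Cy5 at 0.15. Only Mogat2 and Ces2a of the 48 were also past 1.5-fold lower in Cy5 alone, as 2.2% of all genes were. Mogat2, which rebuilds fat in enterocytes, had Cy5 signals of 421, 115, 382 and 392 and a difference of -0.96. Ces2a, a carboxylesterase of gut and liver, had 665, 371, 824 and 1065 and a difference of -0.93. In both the 1 h array was the lowest of the 4, and both were nearest to the 2-fold rule from outside.

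**Figure D5:**
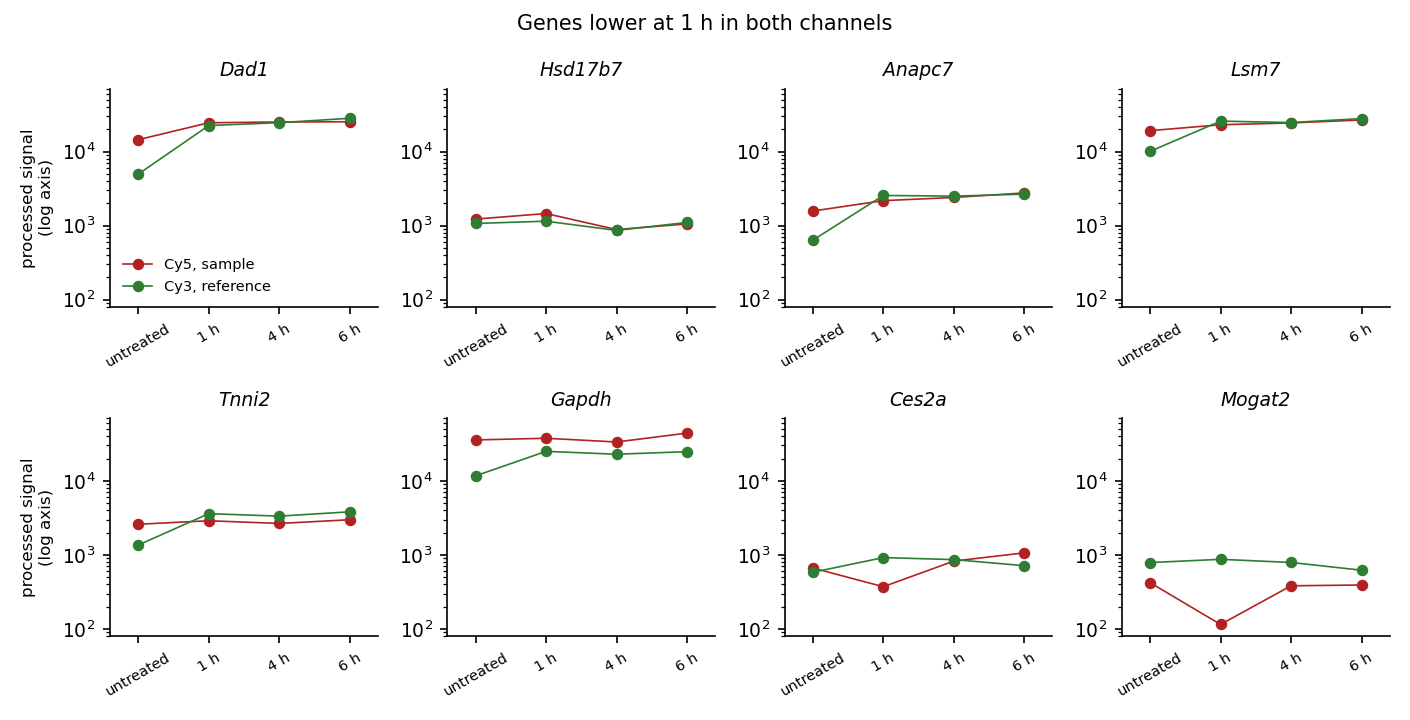
Processed signals (log axis) of the 5 genes lower at 1 h and of Gapdh, Ces2a and Mogat2 on the 4 arrays, Cy5 in red and the Cy3 reference in green. For Dad1, Anapc7, Lsm7, Tnni2 and Gapdh the reference is lowest on the untreated array, for Hsd17b7 both channels stay level, and for Ces2a and Mogat2 Cy5 dips at 1 h.

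Some higher genes rested on the reference too. Of the 34, the reference moved by at least 2-fold in 5, and Cy5 had the opposite sign in 3: Bud13, Pcnp and Defa21. Bud13, a splicing factor at 2.74, had an outlying local background on the 1 h array and stood at -0.09 from processed signals, with Cy5 signals of 730 and 958 and reference signals of 653 and 911. Pcnp was at 1.17 with Cy5 at -0.18 and a reference of 3995 and 2105, also on a spot with an outlying background. Such a background touched 6 of the 34, against 12.1% of all genes. Of the 34, 28 rested on 1 probe.

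The 1 h array stood apart from all 3 others in few genes. In the ratio 41 of 10187 genes measured on 4 arrays were at least 1.5-fold above each other array (0.402%), and 17 of these also in Cy5 (0.167%). The 17 were Nr4a1, Nr4a2, Fosb, Ier2, Egr2, Dusp2, Chac1, Sesn2, Osm, Per1, Itprip and Cldn12, with Reg3b, Reg3g, Mptx1, Clca1 and Retnlb of the tissue lists. By this measure Nr4a2 stood 1.76 over the next array in the ratio, Nr4a1 1.61 and Chac1 1.32. Below each other array in both measures were Ces2a and Mogat2 (0.0196%).

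Genes well above background in Cy5 on 1 of the 2 arrays alone have only a bound in Cy5. Of 439 seen at 1 h alone, 0 were at least 2-fold higher and 2 at least 1.5-fold, Anxa8 (at least 1.92-fold) and Sval1 (at least 1.65-fold). Of 333 seen in untreated cells alone, 4 were at least 2-fold lower, led by Prdx4 (at least 7.79-fold), Twsg1 (4.49-fold) and Tex261 (3.37-fold). In all 4 the reference was dimmer at 1 h by 2-fold or more as well, so the ratio does not carry these bounds. Bounds set Cy5 against Cy5, and without a dye swap their dye bias could not be checked.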

How the data were processed

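Per the submitters' processing notes, the scans went through Agilent Feature Extraction 10.5.1.1. The deposited scanner files hold intensity values (median brightness of spot and local background, not yet corrected), the scanner software's processed signals and its log10 ratio of Cy5 over Cy3, per the file headers. A deposited series-wide table repeats those log10 ratios. Further steps by the authors are not given in the sources used here.

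Median intensities were corrected with normexp (offset 50) and normalized by loess within each array in limma 3.58.1 under R 4.3.3, with no step between arrays. Control spots and spots marked as outliers (1.58% untreated, 1.84% at 1 h) were left out, and 0 spots were saturated. Values were averaged over the spots of each probe and over the measured probes of each gene (8030 of 10370 genes rested on 1 probe). Of 39429 probes 27655 were named by accession in a RefSeq table of GRCm38.p6. A probe was measured when at least 0.5 of its spots were well above background, in each channel, on both arrays. Normalized Cy5 and Cy3 alone come from Aquantile scaling of the same values. Bounds set the bright array's Cy5 against the higher of the dim probe's value and the lowest value well above background on that array.

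The members and lists were chosen with earlier results of these data known. Named genes are those past the 2-fold rule, the 20 nearest below it in each direction, up to 6 members of each of 50 lists and all members of short lists, a benchmark list, the largest bounds and the cell type markers; Atf4, Egr3, Egr4 and Hilpda were named after their values were seen, and not all genes under the rule are reported here. The steps were tested on simulated data for 10584 genes. Called were 20.4% of genes raised 2-fold, 75.0% raised 3-fold, 89.8% raised 4-fold and 82.0% lowered 4-fold, and 0 unchanged genes. Genes raised 4-fold had a median of 1.83, since the offset shrinks differences. The simulated array was the untreated array with spot noise added and the same local backgrounds. It holds no shift of the reference between arrays, so the 0 does not cover calls that rest on Cy3. Tried as alternatives were the background correction, the normalization, the source of the values, the use of the reference, the filters, the outlier flags, the probe taken and the size rule (13 settings), with 2 more chosen after seeing the data. Tables used numpy 2.4.6 and pandas 2.3.3, figures matplotlib 3.10.9, all under Python 3.11.15.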

Additional observations from a re-analysis of the deposited data

Results flagged for a closer look

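Chac1 and Klf2 lay on opposite sides of the untreated array at different times. Chac1 was 1.32 above untreated cells at 1 h and at -1.73 at 6 h, with log2 ratios of -0.16 untreated, 1.16 at 1 h, -1.04 at 4 h and -1.89 at 6 h. Klf2 was 1.24 above at 1 h and at -1.22 at 4 h, and at 6 h it was at -0.95. The differences between times were not tested, and they share the untreated array. For Klf2 the 1 h difference was 0.35 in Cy5.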

How the results depend on the processing

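The 34 higher and 5 lower genes became 3029 and 0 under median centring without loess (median of all genes 0.86), 64 and 16 with scaling between arrays, 117 and 42 from processed signals and likewise from the deposited log10 ratios, and 135 and 48 under the 1.5-fold rule. They became 48 and 11 without background correction, 39 and 70 in Cy5 alone, 29 and 0 when genes with a moved reference were left out, 32 and 3 with no filter on dim probes, 37 and 8 with the brightest probe, and 30 and 3 without spots of outlying background, a setting chosen after seeing the data. Without the tissue lists, chosen likewise, 16 were higher. Of the 34 higher genes 33 were shared with the processed signals and 20 with Cy5 alone. In Cy5 alone the sign turned for Anapc7 (0.48), Dad1 (0.62), Hsd17b7 (0.86), Lsm7 (0.20), Tnni2 (0.0923), Bud13 (-1.68), Defa21 (-0.44) and Pcnp (-0.18). Bud13 was at -0.10 without background correction and at -0.0899 and -0.0897 from processed signals and deposited ratios. Hsd17b7 was at 0.15 without background correction, 0.14 from processed signals, deposited ratios, its brightest probe and without spots of outlying background. Lsm7 was at 0.0391 under median centring. The cause was not tested. The median of the early response genes stood 0.16 to 0.26 above that of all genes in every setting. No paired analysis was possible because each group has 1 array, and for the same reason no array could be left out. The spot error covers neither cultures nor labelling, dim genes have only bounds, and the offset shrinks low signals.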

Other observations

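Hilpda, a lipid droplet protein induced by low oxygen and fatty acids, was at 0.79. H1f5, a linker histone, was at 0.59 with Cy5 signals of 5288, 9475, 8963 and 3808 in untreated cells and at 1, 4 and 6 h, while the histone list had a median of -0.09 over 26 measured genes and 1 member past the rule. Ly6c1, a surface protein of endothelium and some lymphocytes, was at 0.85 with Cy5 signals of 271, 726, 380 and 1419, and Lypd8, a colonic epithelial protein, was at 0.93.

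Rgs2, a brake on G protein signals, was at -0.58 with a Cy5 difference of 0.09, and Id2, an inhibitor of basic helix-loop-helix factors, was at -0.55 with a Cy5 difference of -0.58. Id2 had Cy5 signals of 1716, 1051, 299 and 200, so each later array was lower. Among genes of cholesterol and fatty acid synthesis 3 of 29 were past the 1.5-fold rule downward, among them Hsd17b7 and Ebp (-0.60), and the list median was 0.07. Ebp, a sterol isomerase of this pathway, had Cy5 signals of 11203 untreated and 13858 at 1 h and a reference of 6870 and 13283.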
